A study of Mus musculus with 29 samples.

Results

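The messenger RNA of 8 genes with parts in making and releasing glucose in the liver was followed. The genes, chosen by symbol, were Pcx, Pck1, Fbp1, G6pc, Slc37a4, Aqp9, Gpd1 and Sik1. All 8 were found among the 24346 rows of the expression table, and all 8 passed the filter on low values in liver. Transcript levels do not measure glucose output, which was not tested here. Gluconeogenesis builds glucose from lactate, alanine and glycerol when food is absent, and in the liver it runs against glycolysis at a few irreversible steps, each with its own enzyme. Glucagon acting through cAMP, glucocorticoids and the fall in insulin raise transcription of several of these enzymes, and the last step, in the endoplasmic reticulum, frees glucose for export to the blood. The brain uses glucose but does not release it.

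Male C57BL/6J mice, all fed a high-fat diet for 10 weeks beforehand, gave liver and hippocampus for sequencing of messenger RNA. For the next 4 weeks they had control chow with intermittent fasting (CC-IF), control chow at all times (CC), the same high-fat food with fasts every other day (HFD-IF) or the same high-fat food at all times (HFD). Liver gave 4 CC-IF, 4 CC, 2 HFD-IF and 4 HFD libraries, and hippocampus gave 3, 4, 4 and 4 in the same order. The design text states 32 samples and calls those of a group biological replicates; 29 libraries were analysed here. The labels do not say whether tissue was taken on a fasting or a feeding day, and no group stayed on chow throughout. Values are FPKM, fragment counts scaled to transcript length and to library size, and log2 changes are on the log2(FPKM + 1) scale with standard errors after ±. Libraries are named by the index in their column, which counts from 0.

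Estimated depth was 9.67 to 16.1 M fragments in liver and 11.8 to 37.8 M in hippocampus (M, 1e6), and marker genes were set beside the tissue labels. The hepatocyte list of 7 genes summed to 16948 to 65434 FPKM in liver against 8.44 to 1745 FPKM in hippocampus, where Ttr, which the choroid plexus also makes, reached 1744 FPKM and the other 6 genes at most 0.757 FPKM. The neuron list of 7 genes summed to 1.503 to 3.79 FPKM in liver against 2009 to 2410 FPKM in hippocampus, with Snap25 and Slc17a7 listed at 0 in every liver. Alb, which encodes albumin, was listed at 0 in 4 of 4 CC-IF, 3 of 4 CC, 0 of 2 HFD-IF and 1 of 4 HFD livers, and at 29215 FPKM or more in the others. An exact 0 in this table can therefore be a failed estimate, and genes are said below to be listed at 0. Without Alb the hepatocyte list summed to 16948 to 18236 FPKM in CC-IF, 20110 to 23506 in CC, 14520 to 19556 in HFD-IF and 20853 to 21982 in HFD livers. HFD-IF library 1 stood apart from every other liver: its 6 stellate cell and fibroblast genes summed to 490 FPKM, against 137 to 243 elsewhere, and its 8 macrophage genes to 245 FPKM, against 62.9 to 123. Tissue was sequenced in bulk, so fewer cells of a type and less RNA per cell cannot be told apart.

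The promoters of Pck1, G6pc and Slc37a4 are shown because the search found the cAMP half-site or the insulin response core in them. RefSeq windows of GRCm38.p6, 250 bases before to 50 after each start, were available for 6 of the genes in 10 windows, and capitals mark the matches. The Pck1 window is chr2:173152823-173153122 on the plus strand, G6pc is chr11:101367466-101367765 on the plus strand, and the first Slc37a4 window is chr9:44396696-44396995 on the plus strand.
Pck1: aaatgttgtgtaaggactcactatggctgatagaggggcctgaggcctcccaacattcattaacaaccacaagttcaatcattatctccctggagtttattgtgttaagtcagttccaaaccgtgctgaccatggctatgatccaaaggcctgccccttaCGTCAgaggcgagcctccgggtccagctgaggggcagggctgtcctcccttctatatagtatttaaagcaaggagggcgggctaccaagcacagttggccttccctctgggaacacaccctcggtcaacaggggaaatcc
G6pc: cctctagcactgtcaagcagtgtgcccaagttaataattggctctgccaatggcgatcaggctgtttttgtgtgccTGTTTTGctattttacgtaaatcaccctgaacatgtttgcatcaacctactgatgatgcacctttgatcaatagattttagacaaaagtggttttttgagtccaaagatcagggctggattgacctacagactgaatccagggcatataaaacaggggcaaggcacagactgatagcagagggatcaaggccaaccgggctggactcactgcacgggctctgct
Slc37a4: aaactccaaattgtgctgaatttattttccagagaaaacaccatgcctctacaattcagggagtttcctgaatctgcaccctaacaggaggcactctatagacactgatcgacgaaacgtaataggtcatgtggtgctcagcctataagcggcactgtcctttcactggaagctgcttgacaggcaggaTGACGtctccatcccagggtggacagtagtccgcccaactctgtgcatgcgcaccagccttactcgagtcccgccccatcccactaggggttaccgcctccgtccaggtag
In Pck1 the capitals are CGTCA, the reverse complement of the cAMP half-site TGACG, at bases -90 to -86 from the start, where the rat gene is known for its cAMP response element. In G6pc they are TGTTTTG, the reverse complement of the insulin response core CAAAACA, at -174 to -168. In Slc37a4 they are TGACG at -61 to -57. Both strands were searched, and 20.8% of 32851 promoters held TGACG and 6.28% held CAAAACA. Of the 10 windows here, 3 held TGACG and 1 held CAAAACA. By gene, 2 of 6 held TGACG and 1 of 6 held CAAAACA. The second Slc37a4 window, which overlaps the first, held TGACG at -214 to -210 and CGTCA at -82 to -78. That TGACG is the same site as the one in the first window. The other motifs searched were the full cAMP element TGACGTCA, which contains TGACG (1.79% of all promoters), the FOXO motif TGTTTAC (3.65%), the glucocorticoid half-site AGAACA (19.0%), the HNF4A core CAAAGTCCA (0.475%), the E-box CACGTG (7.15%) and the PPAR and RXR direct repeat (0.0396%). Of these, CACGTG matched at -248 in a Pcx window and AGAACA at -138 in an Aqp9 window. The letters of the other 4 were not in these 10 windows.

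In the comparison of CC-IF with CC livers, Pcx, Fbp1, Slc37a4 and Aqp9 rose, 0 of the 8 genes fell and 4 did not pass the test (limma, adjusted p under 0.05). Over all 11497 genes tested, 14.2 percent rose and 9.77 percent fell, or 24.0 percent either way, so calls were common in this contrast. The median log2 change of the 8 genes was 0.53, against 0.02 over all genes tested. Pck1, Fbp1, Pcx and Aqp9 had every CC-IF liver above every CC liver, a separation that 17.4 percent of all genes tested showed in that direction.

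**Figure D1:**
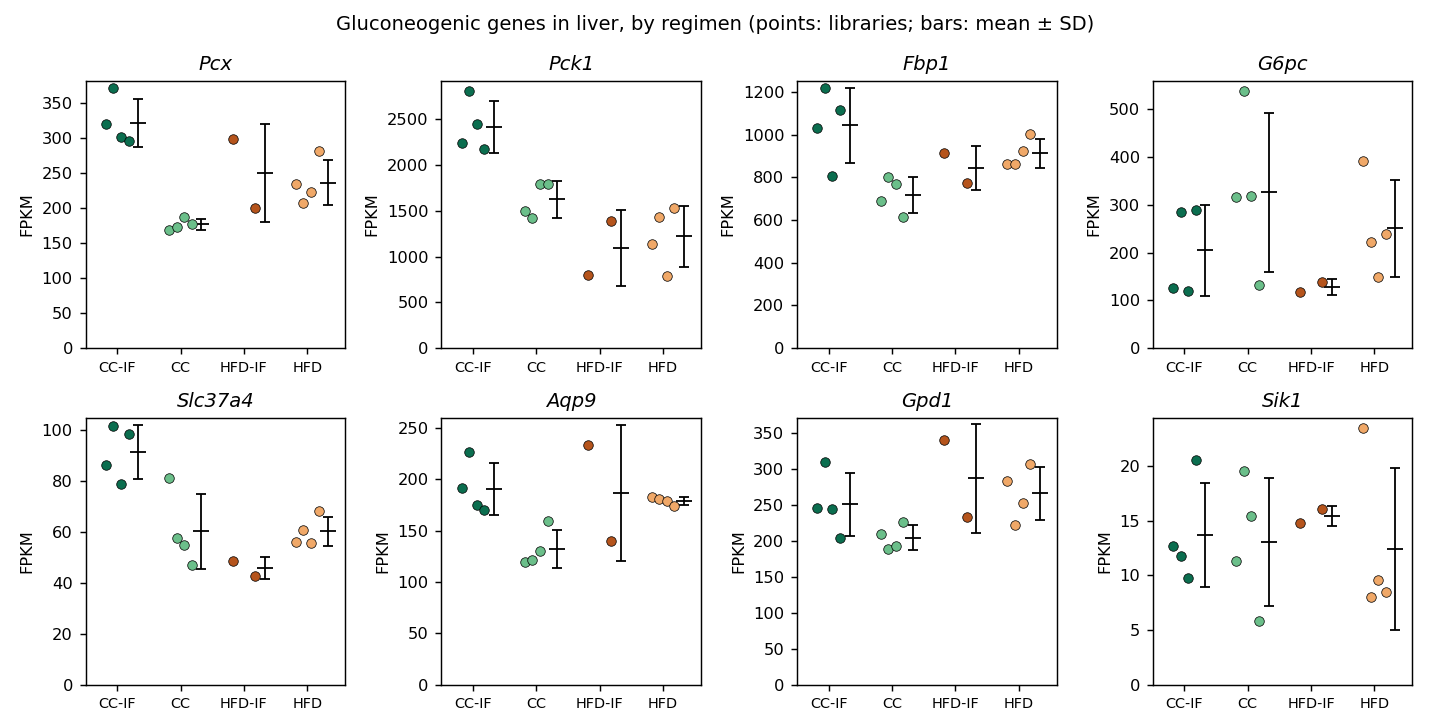
FPKM of each of the 8 genes (vertical axes, from 0) in every liver library (points) of the CC-IF, CC, HFD-IF and HFD regimens, with bars for the mean ± SD. The 4 CC-IF livers lie above the 4 CC livers for Pcx, Pck1, Fbp1 and Aqp9, while G6pc and Sik1 spread widely within regimens.

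Pcx, pyruvate carboxylase (chromosome 19, 4510472 to 4621752 on the plus strand), turns pyruvate into oxaloacetate in the mitochondrion and so opens the route from lactate and alanine. It was at 319, 371, 301 and 295 FPKM in CC-IF livers, at 168, 173, 187 and 178 FPKM in CC livers, at 299 and 200 FPKM in HFD-IF livers, and at 234, 206, 223 and 280 FPKM in HFD livers. The CC livers were the lowest of all 14 and did not overlap with the CC-IF or the HFD livers, and the 2 HFD-IF livers lay on either side of the HFD livers. Pcx rose by 0.86 ± 0.13 in CC-IF against CC livers (limma, adjusted p = 5.69e-04), the smallest p of the 8 genes. It also rose by 0.45 ± 0.13 in CC-IF against HFD livers (adjusted p = 0.0244 in limma). The second call was lost without HFD library 0, 1 or 2 or CC-IF library 1, with limma adjusted p between 0.0531 and 0.0676.

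Pck1, cytosolic phosphoenolpyruvate carboxykinase (chromosome 2, 173153048 to 173159273 on the plus strand), makes phosphoenolpyruvate from oxaloacetate. It was at 2235, 2810, 2447 and 2179 FPKM in CC-IF livers, at 1493, 1416, 1794 and 1794 FPKM in CC livers, at 795 and 1383 FPKM in HFD-IF livers, and at 1142, 1428, 791 and 1534 FPKM in HFD livers. All CC-IF livers were above all other livers, and the HFD livers overlapped with both the CC and the HFD-IF livers, while the HFD-IF livers were below all CC livers. The gene rose by 1.02 ± 0.21 in CC-IF against HFD livers (limma, adjusted p = 0.00521). Its change in CC-IF against CC livers was 0.57 ± 0.21 and missed the threshold (limma, adjusted p = 0.0686), although the 8 livers did not overlap. That contrast passed without HFD library 2, HFD-IF library 0 or HFD-IF library 1, with limma adjusted p of 0.0356, 0.0375 and 0.0369, none of which is a CC-IF or CC library. It also passed with array weights (limma, adjusted p = 0.0335) and with only these 2 regimens in the model (limma, adjusted p = 0.0109). Among the 8 genes it was the most abundant in liver by mean FPKM, with 1660 FPKM over the 14 livers.

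Fbp1, fructose-1,6-bisphosphatase (chromosome 13, 62864753 to 62888282 on the minus strand), reverses the committed step of glycolysis. It was at 1030, 1221, 806 and 1115 FPKM in CC-IF livers, at 687, 799, 768 and 612 FPKM in CC livers, at 916 and 772 FPKM in HFD-IF livers, and at 864, 860, 925 and 1004 FPKM in HFD livers. CC livers were below all CC-IF and all HFD livers, and the CC-IF livers spanned the HFD values. Fbp1 rose by 0.53 ± 0.13 in CC-IF against CC livers (limma, adjusted p = 0.012).

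The last step needs 2 proteins. Slc37a4, the glucose-6-phosphate transporter of the endoplasmic reticulum (chromosome 9, 44396852 to 44402968 on the plus strand), brings the substrate to G6pc, the glucose-6-phosphatase catalytic subunit (chromosome 11, 101367561 to 101377903 on the plus strand). Slc37a4 was at 86.3, 101, 78.6 and 98.2 FPKM in CC-IF livers, at 81.3, 57.5, 54.8 and 47.2 FPKM in CC livers, at 48.7 and 42.7 FPKM in HFD-IF livers, and at 56.1, 60.9, 55.5 and 68.0 FPKM in HFD livers. CC-IF livers were above all HFD-IF and HFD livers, and CC library 0 alone reached into their range. The transporter rose by 0.61 ± 0.14 in CC-IF against CC livers (limma, adjusted p = 0.00864) and by 0.59 ± 0.14 in CC-IF against HFD livers (limma, adjusted p = 0.0115). G6pc did not follow it. It was at 126, 286, 119 and 288 FPKM in CC-IF livers, at 316, 538, 319 and 131 FPKM in CC livers, at 117 and 139 FPKM in HFD-IF livers, and at 393, 223, 149 and 239 FPKM in HFD livers. Its CC-IF livers included both low and high values and overlapped with the CC livers, and the log2 change of -0.63 ± 0.43 had a 95 percent interval of -1.55 to 0.29 (limma, adjusted p = 0.316). The difference between the changes of Slc37a4 and G6pc was not tested.

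Glycerol reaches the pathway through Aqp9, the glycerol channel of the hepatocyte membrane (chromosome 9, 71110659 to 71168682 on the minus strand), and Gpd1, cytosolic glycerol-3-phosphate dehydrogenase (chromosome 15, 99717515 to 99725005 on the plus strand). Aqp9 was at 192, 226, 175 and 170 FPKM in CC-IF livers, at 119, 121, 130 and 159 FPKM in CC livers, at 233 and 140 FPKM in HFD-IF livers, and at 183, 180, 179 and 174 FPKM in HFD livers. CC livers were below all CC-IF and HFD livers, and the 4 HFD livers lay within 10 FPKM of each other while the 2 HFD-IF livers lay on either side of them. Aqp9 rose by 0.53 ± 0.15 in CC-IF against CC livers (limma, adjusted p = 0.0202), a call that was lost without CC library 0 or 1 or CC-IF library 1 (limma, adjusted p = 0.0612, 0.0592 and 0.0623). Gpd1 was at 246, 309, 244 and 204 FPKM in CC-IF livers, at 210, 189, 192 and 226 FPKM in CC livers, at 340 and 233 FPKM in HFD-IF livers, and at 283, 222, 253 and 306 FPKM in HFD livers. The CC-IF and CC livers overlapped, and the change of 0.28 ± 0.15 did not pass (limma, adjusted p = 0.19). An antisense gene, Gm16537, shares 384 exonic bases with Gpd1 in GENCODE M21, and whether the deposited values used strand is not given in the sources used here; the other 7 genes share no exonic base with another gene there.

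Sik1, salt-inducible kinase 1 (chromosome 17, 31844250 to 31855804 on the minus strand), is induced by cAMP and acts as a brake on the CREB coactivators that drive Pck1 and G6pc. It was the least abundant of the 8 in liver, at 12.7, 11.8, 9.75 and 20.6 FPKM in CC-IF livers, 11.3, 19.5, 15.4 and 5.87 FPKM in CC livers, 14.8 and 16.1 FPKM in HFD-IF livers, and 23.5, 8.04, 9.61 and 8.53 FPKM in HFD livers. The values of all regimens overlapped, and HFD library 0 was the highest of the 14. The change in CC-IF against CC livers was 0.13 ± 0.36 (limma, adjusted p = 0.838), and its sign turned without CC library 3 (-0.18) or CC-IF library 3 (-0.07).

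Marker genes moved with this contrast as well, in which 14.2 percent of all genes tested rose and 9.77 percent fell. The 7 pericentral hepatocyte genes summed to 6395 to 8910 FPKM in CC-IF livers against 2704 to 5370 FPKM in CC livers, and 2 of them rose and 1 fell. The 6 periportal genes summed to 3125 to 4010 FPKM in CC-IF livers against 2514 to 3057 FPKM in CC livers, and 2 of them rose and 0 fell. The 6 genes of Kupffer cells, the resident macrophages, summed to 48.0 to 70.9 FPKM in CC-IF livers against 65.4 to 120 FPKM in CC livers, and 1 of them fell, with a median log2 change of -0.64. The list of infiltrating and lipid-associated macrophages ranged from 62.9 to 102 FPKM in CC-IF livers and from 99.1 to 123 FPKM in CC livers, with 0 of 5 tested genes past the threshold. The part of these lists in the changes of the 8 genes was not tested.

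Fasting on the high-fat diet gave no call among the 8 genes. In HFD-IF against HFD livers 0 of 8 passed limma's threshold, where 1.32 percent of all genes tested did, and 1 of 8, Slc37a4, had an unadjusted p under 0.05 (0.0487), as did 2043 of all 11497 genes. The median log2 change of the 8 was -0.05, against -0.01 over all genes. Both HFD-IF livers were below all 4 HFD livers for G6pc (-0.88 ± 0.52, limma adjusted p = 0.398) and Slc37a4 (-0.39 ± 0.18, limma adjusted p = 0.279), a separation that 12.8 percent of all genes tested showed in that direction, 9.4 percent in the other and 22.2 percent in either. The other 6 genes overlapped.

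The 2 HFD-IF livers disagreed on direction for several of the genes. Set against the HFD livers with the other one left out, HFD-IF library 0 had Pcx at 0.35, Aqp9 at 0.38, Gpd1 at 0.36 and Pck1 at -0.58, while HFD-IF library 1 had Pcx at -0.23, Aqp9 at -0.35, Gpd1 at -0.18 and Pck1 at 0.22, all as log2 changes. Each of these fits takes the spread of the lone library from the other regimens, and no adjusted p was under 0.19 in limma. Library 1 is the liver with the high stellate and macrophage sums, and its pericentral list summed to 3035 FPKM, against 8436 FPKM in library 0. The part of those cells in the direction of these genes was not tested.

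**Figure D2:**
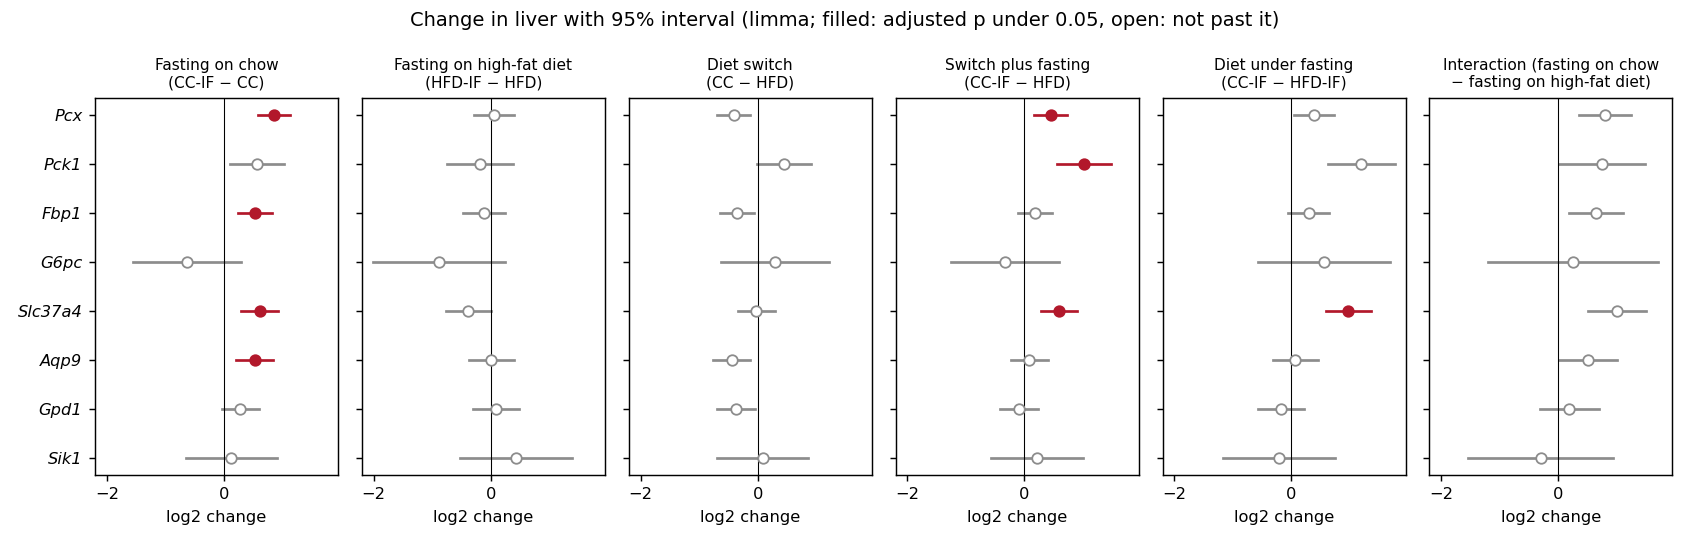
Log2 change of each gene with its 95 percent interval in 6 contrasts between liver regimens, with filled points for an adjusted p under 0.05 in limma. The filled points are Pcx, Fbp1, Slc37a4 and Aqp9 for CC-IF minus CC, Pcx, Pck1 and Slc37a4 for CC-IF minus HFD, and Slc37a4 for CC-IF minus HFD-IF.

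Whether the response to fasting depended on diet was tested as an interaction, the CC-IF against CC change minus the HFD-IF against HFD change. None of the 8 passed in limma, where 1.11 percent of all genes tested did, and 5 of the 8 had an unadjusted p under 0.05, as did 2101 of all 11497 genes. The largest were Slc37a4 (1.00 ± 0.23, limma adjusted p = 0.0568) and Pcx (0.80 ± 0.20, limma adjusted p = 0.0756), followed by Pck1 (0.75 ± 0.34), Fbp1 (0.65 ± 0.21) and Aqp9 (0.51 ± 0.23). The median of the 8 was 0.58, against 0.04 over all genes. Without HFD-IF library 0, the interaction passed for Pcx (1.09, limma adjusted p = 0.00382), Aqp9 (0.88, limma adjusted p = 0.0122) and Slc37a4 (1.09, limma adjusted p = 0.0203), and over all genes 1766 passed, against 128 with every library. Slc37a4 also passed without CC library 0 or CC-IF library 2 (limma, adjusted p = 0.0267 and 0.0441). Without HFD-IF library 1, none of the 8 passed and 28 of all genes did, and Pcx stood at 0.51 (limma, adjusted p = 0.306).

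Moving to chow alone left several genes of the pathway lower than continued high-fat feeding, short of the threshold. In CC against HFD livers 0 of 8 passed in limma, where 2.3 percent of all genes tested did, and 4 of 8 had an unadjusted p under 0.05, all 4 lower in CC, as did 2148 of all 11497 genes, 1394 of them lower. All CC livers were below all HFD livers for Pcx (-0.41 ± 0.13, limma adjusted p = 0.111), Aqp9 (-0.44 ± 0.15, limma adjusted p = 0.124) and Fbp1 (-0.35 ± 0.13, limma adjusted p = 0.175), a separation in that direction shown by 9.5 percent of all genes, with 4.6 percent in the other. Gpd1 was at -0.37 ± 0.15 and Pck1 at 0.44 ± 0.21, both with overlapping groups. Pcx and Aqp9 passed when either HFD-IF library was left out of the shared model, with limma adjusted p of 0.0369 to 0.0436. Beside these genes, Cfd, which encodes an adipocyte-secreted protease, was at most 0.205 FPKM in CC livers against 5.29 to 70.9 FPKM in HFD livers, and the 6 adipocyte genes summed to 0.513 to 1.97 FPKM in CC against 6.21 to 84.0 FPKM in HFD livers. Adipoq, Lep and Retn, which define adipocytes, were listed at 0 in all 14 livers.

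Switch and fasting together, CC-IF against HFD, called 3 of the 8 genes, Pck1, Slc37a4 and Pcx, all higher, where 23.7 percent of all genes tested passed, 12.4 percent higher and 11.3 percent lower. The same 3 were the ones whose CC-IF livers all lay above the HFD livers, as 14.9 percent of all genes did. Fbp1 (0.18 ± 0.13), Aqp9 (0.08 ± 0.15) and Gpd1 (-0.09 ± 0.15) were close to 0 in this contrast, with 95 percent intervals of -0.11 to 0.47, -0.23 to 0.40 and -0.41 to 0.23. These values share the CC-IF livers with the first contrast and the HFD livers with the diet switch, and are given side by side for that reason. Between the 2 fasted groups, CC-IF against HFD-IF, 1 of the 8 passed, where 0.591 percent of all genes did, 0.391 percent higher. Slc37a4 rose by 0.97 ± 0.18 (limma, adjusted p = 0.0443), while Pck1, also without overlap, was at 1.20 ± 0.26 (limma, adjusted p = 0.0565); 12.6 percent of all genes were separated in that direction. The Slc37a4 call was lost without any 1 of 9 libraries (limma, adjusted p = 0.0546 to 0.184): HFD-IF library 1, HFD libraries 0 and 2, CC libraries 1 and 2, or any CC-IF library. It was also lost with no filter, array weights, the replicate block or 2-group fits.

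The genes around the 8 were grouped into 8 lists of 87 genes in all, and the same fits were read for them. Of 8 precursor entry genes, 3 rose and 0 fell in CC-IF against CC livers. The shares over all genes tested were 14.2 percent higher and 9.77 percent lower. Sds, serine dehydratase, rose by 1.54, to 260 ± 40.8 FPKM in CC-IF livers against 88.1 ± 9.34 FPKM in CC livers (SD, n = 4 each). Gpt, which makes pyruvate from alanine, rose by 1.05, and its relative Gpt2 by 1.04. The list's median was 0.63. Sds is also 1 of the periportal markers. In CC against HFD livers, Gpt fell by 0.77 and Got2, mitochondrial aspartate aminotransferase, fell by 0.36, with a list median of -0.45. Over all genes tested, 1.97 percent fell in CC against HFD livers.

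Of 4 tested genes of glycerol handling, from a list of 7, 3 rose and 1 fell in CC-IF against CC livers. Beside this list and the 2 below, 14.2 percent of all genes tested rose and 9.77 percent fell. Gyk, glycerol kinase, rose by 0.96 to 65.0 ± 6.20 FPKM in CC-IF livers, against 33.7 ± 9.46 FPKM in CC livers (SD, n = 4 each). Aqp11, an aquaporin, rose by 1.20 and Gpd1l, a relative of Gpd1, by 0.91. Gpd2, the mitochondrial glycerol-3-phosphate dehydrogenase, fell by 1.01, to 8.32 ± 0.187 FPKM in CC-IF livers against 17.96 ± 2.81 FPKM in CC livers. Of the 11 genes of mitochondrial carriers and oxaloacetate export, 7 rose and 0 fell, with a median of 0.40: among them were Slc25a10, the dicarboxylate carrier (1.33), Slc25a13, the aspartate-glutamate carrier (0.87), Mpc1, of the pyruvate carrier (0.63), and Slc25a11, the oxoglutarate carrier (0.51). The 7 reversible enzymes shared with glycolysis, from Gpi1 to Eno1, had 0 genes past the threshold and a median of 0.05.

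**Figure D3:**
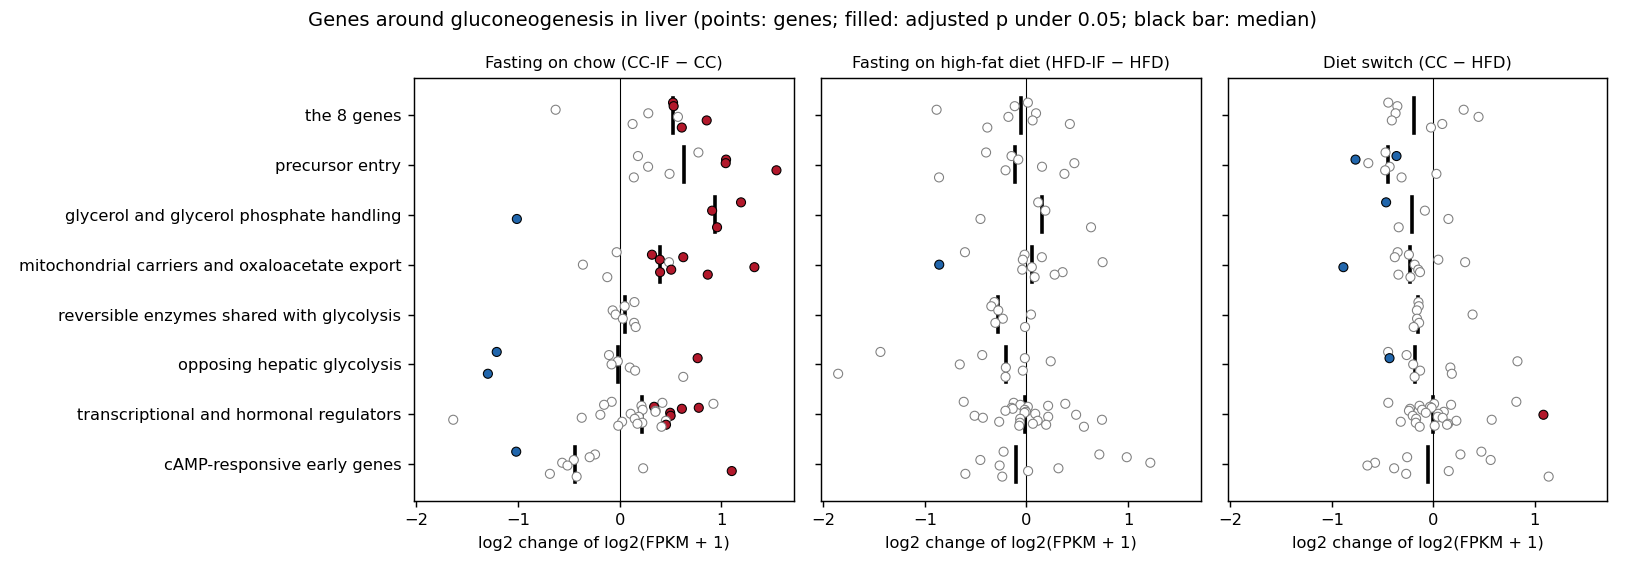
Log2 change of every tested gene (points) of the 8 genes and of 7 lists around them, for CC-IF minus CC, HFD-IF minus HFD and CC minus HFD livers, with filled points for an adjusted p under 0.05 in limma and a black bar for the list median. In CC-IF minus CC, filled points lie to the right of 0 for 7 of 11 genes of the mitochondrial carriers and 3 of 4 of glycerol handling, and none are filled among the reversible enzymes. Over all genes tested, 14.2 percent rose in that contrast.

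Among genes of opposing glycolysis in CC-IF against CC livers, Pklr, liver pyruvate kinase, fell by 1.30, while Pdk2, which restrains the entry of pyruvate into the citric acid cycle, rose by 0.77. The median of the list's 9 tested genes was -0.02. Pfkl, liver phosphofructokinase, was at 0.15 ± 0.07 and did not pass (limma, adjusted p = 0.134). On the high-fat diet, HFD-IF against HFD gave Pklr -1.85 ± 0.48, short of the threshold (limma, adjusted p = 0.0823). Pklr was at 89.3 FPKM in HFD-IF library 0 and 25.9 FPKM in HFD-IF library 1, against 122 to 243 FPKM in HFD livers. Library 1 is the liver with the high stellate and macrophage sums.

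Pck1 and Fbp1 were then each set over the opposing enzyme within a library, as a difference of log2(FPKM + 1). Pck1 over Pklr averaged 4.87 ± 0.449 in CC-IF livers against 3.00 ± 0.787 in CC livers (SD, n = 4 each), a difference of 1.87 with no overlap (exact permutation test, two-sided, p = 0.0286, the smallest that 4 against 4 allows; adjusted over 15 ratio tests, 0.214). Against HFD livers, at 2.74 ± 0.586, the CC-IF difference was 2.13 (exact permutation p = 0.0286, adjusted 0.214). Fbp1 over Pfkl differed by 0.38 in CC-IF against CC livers (exact permutation p = 0.0571, adjusted 0.286). None of the 15 passed after adjustment, and those with 2 HFD-IF livers against 4 cannot go below 0.133.

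Among 26 tested regulators, 6 rose and 0 fell in CC-IF against CC livers. Over all genes tested, 14.2 percent rose and 9.77 percent fell there. Foxo1, the transcription factor that insulin keeps out of the nucleus, rose by 0.78, to 35.4 ± 5.30 FPKM in CC-IF livers against 20.2 ± 2.89 FPKM in CC livers (SD, n = 4 each). Foxo3 rose by 0.61, Insr, the insulin receptor, by 0.50 and Sirt1, a deacetylase that acts on FOXO factors, by 0.46. Ppargc1a, a coactivator of gluconeogenic genes, was at 0.46 ± 0.28 and did not pass (limma, adjusted p = 0.271). Irs2, an insulin receptor substrate, was the 1 of 26 that rose in CC against HFD livers (1.08), where 0.339 percent of all genes tested did. Foxo1 was the 1 that rose in CC-IF against HFD-IF livers (0.91), where 0.391 percent did. In CC-IF against HFD-IF, array weights left 0 of all genes tested past the threshold, the replicate block 4 and 2-group fits 3. Of 10 cAMP-responsive early genes, Per1, a clock gene, rose by 1.10 and Crem, a cAMP-responsive repressor, fell by 1.02 in CC-IF against CC livers, and the list's median was -0.44. In HFD-IF against HFD livers, 1 gene of all these lists passed, where 1.32 percent of all genes tested did: Slc25a1, the citrate carrier, fell by 0.86. In the interaction, Gpt (1.13), Aqp11 (1.08) and Pdk2 (0.78) passed, as did 128 of all genes tested (1.11 percent). Array weights left 0 genes past the threshold in the interaction, and the replicate block left 22.

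Within a regimen the 8 genes differed in how steady they were. The within-regimen SD of G6pc was 0.68 on the log2 scale, at the 97.5 percentile of all genes tested in liver, and that of Sik1 was 0.58, at the 96.2 percentile, while the median gene had 0.18. Pck1 had 0.32, and the other 5 had 0.19 to 0.22. Estimated fragments per library were 349 to 1132 for Sik1 and 2907 to 14987 for G6pc. G6pc and Sik1 varied together, with a Pearson r of 0.80 between their deviations from regimen means over 14 livers, as did Pcx with Gpd1 (0.86), Aqp9 with Gpd1 (0.75) and Pcx with Aqp9 (0.72). Pck1 and G6pc did not (0.09). These r values share libraries and their scaling and are given as a description. HFD-IF library 0 was above HFD-IF library 1 for Pcx (299 and 200 FPKM), Aqp9 (233 and 140 FPKM) and Gpd1 (340 and 233 FPKM). Library 1 is the liver set apart by its stellate and macrophage sums. The r values without these 2 livers were not computed.

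**Figure D4:**
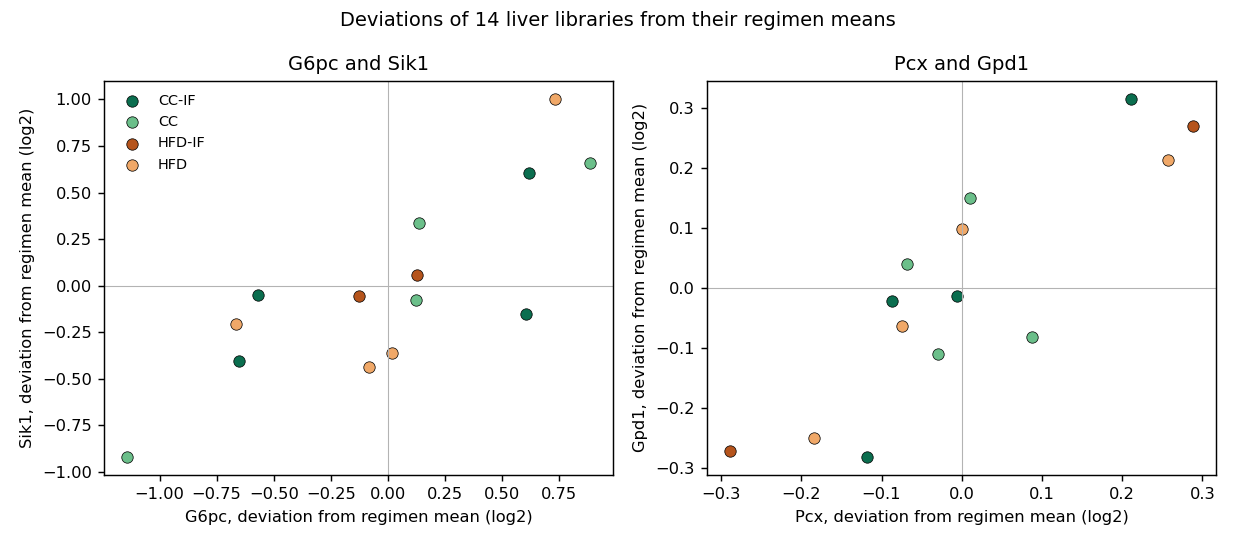
Deviation of each of 14 liver libraries from its regimen mean on the log2(FPKM + 1) scale, for Sik1 against G6pc on the left and Gpd1 against Pcx on the right, coloured by regimen. CC library 3 is lowest on both axes on the left, and HFD-IF library 1 is lowest for Pcx on the right.

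The genes most like each of the 8 over the 14 livers, by Pearson r among 10860 genes of at least 300 nt, were for Pck1 Per1 (0.89), Zbtb16 (0.87) and Nfkbia (0.86). For Pcx they were Aph1a (0.99), Pcyt1a (0.96) and Rab11fip2 (0.96), and for Fbp1 Atad3a, Slc2a9 and Tmem14c (0.93 each). Slc37a4 was closest to Rasal2 (0.89), Dhps (0.88) and Tmcc1 (0.87), and G6pc to Ndufc1 (0.90), Arl4d (0.81) and Dpm2 (0.80). Aqp9 was closest to Acat1 (0.96), Acsm3 (0.95) and Arel1 (0.94), and Gpd1 to Pnldc1 (0.92), Enpp2 (0.89) and Atg7 (0.86). Sik1 had the weakest neighbours, Lrch3 (0.75), Slc25a25 (0.75) and Cox10 (0.72).

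Hippocampus had 4 of the 8 genes above the filter and the other 4 at low values or listed at 0. Pcx was at 12.1 to 15.4 FPKM over 15 libraries, Slc37a4 at 2.79 to 5.20, Gpd1 at 29.5 to 39.9 and Sik1 at 3.00 to 6.68 FPKM, and these 4 passed the filter on low values. Liver was higher by 4.05 ± 0.06 for Pcx, 3.66 ± 0.08 for Slc37a4, 2.79 ± 0.07 for Gpd1 and 1.23 ± 0.15 for Sik1 on the log2 scale over the mean of the 4 regimens, each past the threshold in limma, as were 91.9 percent of all 14415 genes, 44.9 percent higher and 47.0 percent lower in liver. Aqp9 was at 0.0857 to 0.480 FPKM in hippocampus against 119 to 233 FPKM in liver. Pck1, G6pc and Fbp1 were listed at 0 in 12, 13 and 8 of the 15 hippocampal libraries and reached at most 0.142, 0.0688 and 0.131 FPKM in the others.

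The paralogues had another pattern. G6pc3, a widely expressed glucose-6-phosphatase, was at 2.61 to 5.69 FPKM in liver against 14.4 to 20.5 FPKM in hippocampus, a log2 difference of -1.74 ± 0.06 (limma, adjusted p = 1.05e-19). Pck2, the mitochondrial isoform of Pck1, differed by -0.72 ± 0.13 and Gpd1l by -0.66 ± 0.07, both lower in liver. Of 8 paralogues tested 6 were lower and 1 higher in liver, against 47.0 percent and 44.9 percent of all genes. In CC-IF against CC livers, 2 of 8 paralogues rose, Gpd1l and G6pc3 (0.42 ± 0.12), where 14.2 percent of all genes did. Pck2 was at 0.49 ± 0.34 and did not pass (limma, adjusted p = 0.33).

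**Figure D5:**
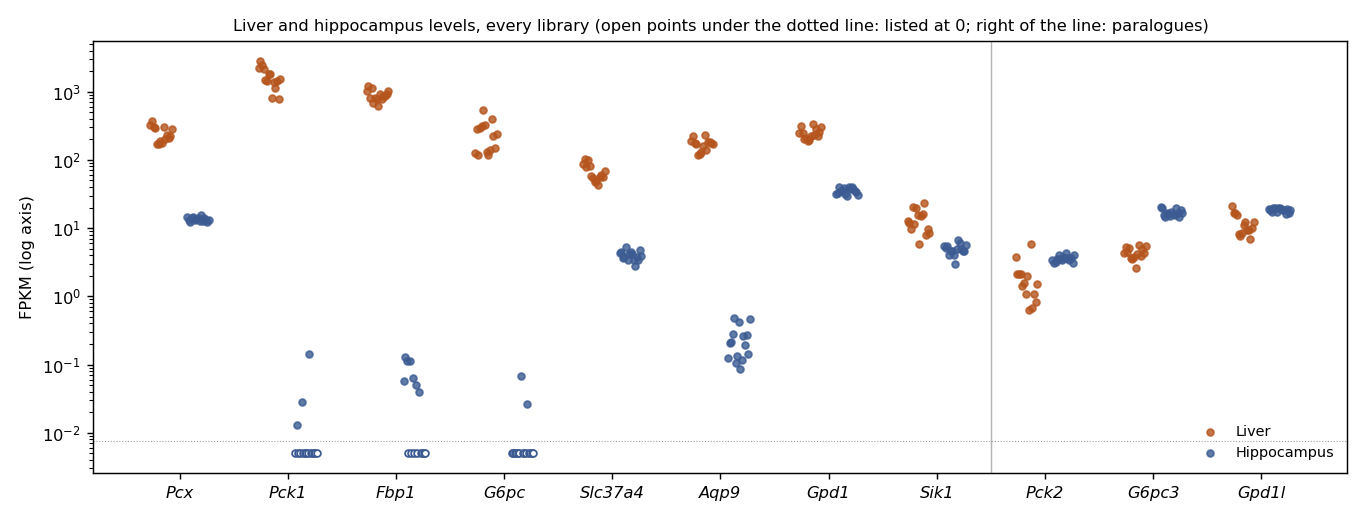
FPKM on a log axis of the 8 genes and 3 paralogues in every liver (brown) and hippocampal (blue) library, with open points under the dotted line for values listed at 0. Every liver lies above every hippocampus for 7 of the 8 genes, Sik1 overlaps between the tissues, and G6pc3 is higher in hippocampus.

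No regimen moved the 4 genes above the filter past the threshold in hippocampus. In CC-IF against CC, 0 of 4 passed in limma, where 0.00778 percent of 12857 genes did, and 0 of 4 passed in each of the other 5 contrasts, where 0.0 percent of genes did; none of the 4 had an unadjusted p under 0.05 in any of the 6. Sik1 was at 5.41 ± 0.194 FPKM in the 3 CC-IF hippocampi and 4.32 ± 0.344 FPKM in the 4 CC hippocampi (SD) without overlap, a log2 change of 0.27 ± 0.16 (limma, adjusted p = 0.855), and 4.01 percent of all genes were separated in that direction. Pcx was at -0.06 ± 0.08 there, with a 95 percent interval of -0.22 to 0.11 that does not reach its liver change.

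Whether fasting on chow changed a gene more in liver than in hippocampus was tested in 1 model of both tissues. The value tested was the difference of the CC-IF against CC changes. All 29 libraries were treated as independent. The sample titles name no animal, so any pairing of liver and hippocampus was not modelled. Pcx passed, with a difference of 0.91 ± 0.15 (limma, adjusted p = 2.35e-04), and it was between 0.84 and 0.97 when any 1 library was left out. It was the 1 of the 4 genes above the filter in both tissues that passed, where 11.2 percent of all genes passed, 7.27 percent higher and 3.9 percent lower. Slc37a4 was at 0.60 (limma, adjusted p = 0.0607), Gpd1 at 0.33 (limma, adjusted p = 0.316) and Sik1 at -0.14 (limma, adjusted p = 0.896). The other 4 genes passed the filter only through liver, and their hippocampal change is held near 0 by the pseudocount, so no tissue difference is read from their values.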

How the data were processed

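Liver and hippocampus RNA (about 20 mg of tissue, 1 µg of total RNA, polyadenylated transcripts, strand-specific libraries, paired reads of 125 nt, per the labels' protocols) was measured in 29 libraries. The authors deposited 1 table of FPKM. Per the submitters' processing notes, reads passed through FastQC (version 0.11.9), Trimmomatic (version 0.39), Bowtie2 (version 2.3.5.1) and TopHat2 (version 2.1.1), listed there with no order, on GRCm38. How FPKM were computed, from which gene models and with what scaling was not given in the sources used here. Columns were tied to tissue and regimen by name, and 0 were left over.

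Values were taken as log2(FPKM + 1), which understates changes of genes with low FPKM. Genes with a mean FPKM of at least 1 over a tissue's libraries were kept (11497 in liver, 12857 in hippocampus, 14415 in either). The regimens of a tissue entered 1 limma 3.58.1 model (R 4.3.3) with group as the only term, and its two-sided p-values received the Benjamini-Hochberg adjustment across all genes, with a threshold of 0.05. Both tissues entered 1 further model, with libraries taken as independent. Python 3.11.15 with pandas 2.3.3, numpy 2.4.6, scipy 1.17.1 and matplotlib 3.10.9 made the tables, exact permutation tests and plots.

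Depth was estimated by reading low FPKM of 2957 single-transcript genes as whole fragments: 69.0% to 79.0% of values in liver and 59.5% to 74.7% in hippocampus lay within 0.2 of a whole number, where chance gives 40%, so it is approximate. Of 40 replicate pairs none repeated a library. Rescaling by the median ratio moved libraries by factors of 0.973 to 1.03. The procedure was tested on simulated data of 11497 genes with 50 changed at each size. It recovered 24% and 74% of log2 changes of 0.5 and 1 in HFD-IF against HFD, and 36% and 84% in CC-IF against CC. In the deposited data, 2756 genes passed in CC-IF against CC. Both HFD-IF livers had an array weight of 0.376, against 0.631 to 1.84 in the other livers. Whether the simulated shares hold with so many changes and such weights was not tested.

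Named are all 8 genes in each contrast, up to 4 genes with the smallest p per list and contrast, fixed opponents, paralogues and a coactivator (Pck2, G6pc3, Gpd1l, Pfkl, Pklr, Ppargc1a) and the 3 genes most like each member; 1 gene that this rule names, and the ratio tests with it, are not reported here. The members and lists were chosen with earlier results of these data known. The limma p-values rest on the spread between the samples within groups, pooled over all groups in the model. Only the 2-group fits rest on the groups compared alone. Gene positions come from GENCODE M21 (GRCm38). Alternatives were the pseudocount, the filter, scaling, array weights, 2-group fits, a replicate block and each library left out.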

Additional observations from a re-analysis of the deposited data

Results flagged for a closer look

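Sik1 in HFD liver library 0 was at 23.5 FPKM, above the other 3 HFD livers at 8.04 to 9.61 FPKM, and the gap took up most of the range of that group. This was 1 flag among 36 groups of 4 libraries looked at for the 8 genes, and chance alone flags about 1 in 20. G6pc was also highest of its group in that library, at 393 FPKM.

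The CC-IF against CC change of Pcx differed between liver and hippocampus by 0.91, by the test of the difference itself in limma (adjusted p = 2.35e-04), and Pcx is above the filter in both tissues. The same test gave 0.60 for Aqp9 and 0.46 for Fbp1. Both are near 0 in hippocampus, at a mean of 0.233 FPKM for Aqp9 and 0.038 FPKM for Fbp1, so these values restate the liver change. With a pseudocount of 0.1 in place of 1, Aqp9 stood at 0.74 (limma, adjusted p = 0.346) and Fbp1 at -0.0031.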

How the results depend on the processing

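The rises of Pcx, Fbp1 and Slc37a4 in CC-IF against CC livers, and of Pck1 and Slc37a4 in CC-IF against HFD livers, passed in all 21 alternatives run for each. Of the 8 genes, those called in CC-IF against HFD-IF (1) were 0 with no filter, 2 with a minimum of 5 FPKM, and 0 with array weights, the replicate block or 2 groups. In CC against HFD (0), 3 were called with array weights and 1 with 2 groups, in the interaction (0), 1 with a minimum of 5, and in the tissue difference (3, of which Fbp1 and Aqp9 passed the filter through liver alone), 1 with a pseudocount of 0.1. Leaving out 1 library gave 3 to 5 for CC-IF against CC, 0 to 2 for CC-IF against HFD-IF and for CC against HFD, 0 to 3 for the interaction, 2 to 3 for CC-IF against HFD and 1 to 4 for the tissue difference.

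Genes called over the whole liver table were 152 for HFD-IF against HFD, 0 with array weights and 9 with 2 groups. For CC against HFD (265) they were 1061 with array weights, 125 with the replicate block and 496 with 2 groups. For CC-IF against HFD-IF (68) they were 30 with no filter, 0 with array weights, 4 with the block and 3 with 2 groups, and for the interaction (128) 69 with median-ratio scaling, 0 with array weights and 22 with the block. Without 1 library the ranges were 5 to 1633 for HFD-IF against HFD, 51 to 512 for CC against HFD, 1 to 1773 for CC-IF against HFD-IF, 16 to 1766 for the interaction and 1968 to 3208 for CC-IF against CC. In hippocampus, CC-IF against CC (1) gave 47 with array weights and 2 to 4 in the other settings with all libraries that moved it. Without 1 library it gave 0 to 3, with 0 left when CC library 0, 1 or 3 or CC-IF library 0 or 1 was out, and the other contrasts (0) gave at most 4.

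Signs turned for Slc37a4 in CC against HFD with median-ratio scaling (0.0018) and for Fbp1 in the tissue difference with a pseudocount of 0.1 (-0.0031). For results whose sign turned in at least 1 fit without 1 library, the log2 values over all such fits ranged as follows. In HFD-IF against HFD they ran from -0.35 to 0.38 for Aqp9, -0.24 to 0.0076 for Fbp1, -0.18 to 0.36 for Gpd1, -0.58 to 0.22 for Pck1, -0.23 to 0.35 for Pcx and -0.23 to 0.070 for Fbp1 over Pfkl. In CC-IF against HFD-IF they ran from -0.30 to 0.44 for Aqp9, -0.45 to 0.087 for Gpd1 and -0.82 to 1.73 for Pck1 over Pklr, and in CC-IF against HFD from -0.0017 to 0.13 for Aqp9 and -0.19 to 0.0043 for Gpd1. In CC against HFD they ran from -0.13 to 0.42 for Sik1, -0.18 to 0.082 for Slc37a4 and -0.067 to 0.53 for Pck1 over Pklr, in the interaction from -0.13 to 0.55 for G6pc and -0.083 to 0.46 for Gpd1, and for Sik1 from -0.18 to 0.35 in CC-IF against CC and -0.45 to 0.076 in the tissue difference. Causes were not tested.

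Whether the column index pairs libraries is not known. Same-numbered livers of different regimens correlated at -0.159 to 0.335 in their deviations (median 0.0323), other livers at -0.312 to 0.176 (median -0.0139). In hippocampus the medians were 0.0451 for the same number and -0.0275 for other numbers. Ranges that overlap in this way cannot decide the question. With the replicate block as a term, the Slc37a4 call in CC-IF against HFD-IF was lost (limma, adjusted p = 0.103).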
